A study of Mus musculus with 8 samples.

Results

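The genes described here are 6 genes of MHC class II antigen presentation, Ciita, H2-Aa, H2-Ab1, H2-Eb1, Cd74 and H2-DMa, measured on Affymetrix arrays in skin of newborn mice. All probe sets whose only gene symbol in the platform annotation is one of these 6 were taken, which gave 10 of the 22690 probe sets on the array. The series compared 4 genotypes of FVB mice that keep or lack pRb, the retinoblastoma protein, and p107, a second member of its family, which both restrain E2F transcription factors. The groups were pRb-/-;p107-/- skin, which lacks both proteins, pRb+/+;p107-/- skin, which lacks p107 alone, pRb-/-;p107+/+ skin, which lacks pRb alone, and pRb+/+ skin. Each group had 2 arrays, and each array held RNA pooled from 3 newborns of 1 genotype. The title of the series places the loss of pRb in the epidermis, whereas RNA came from whole skin. The promoter or Cre line behind that loss and the p107 genotype of the pRb+/+ arrays are not given in the sources used here, and the pRb+/+ arrays are taken to keep p107. The deposited value is a score scaled within each probe set to mean 0 and SD 1 over the 8 arrays, so that a difference of 1 is 1 SD of that probe set. No level of RNA and no fold change can be read from it, and different probe sets cannot be ranked by it. The genes were chosen on the values of an earlier analysis of these arrays, in which Cd74 was among the largest rises with p107 loss in pRb+/+ skin. Values of that comparison are therefore given as a description with no test.

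MHC class II molecules display peptides taken up from outside the cell to helper T cells. An alpha and a beta chain pair in the endoplasmic reticulum, where the invariant chain, encoded by Cd74, fills their groove and guides them to endosomes. There the invariant chain is cut down to a remnant peptide, which the H2-DM molecule exchanges for foreign peptides. Ciita encodes the transactivator that switches on the chain genes, Cd74 and H2-DM together, and it acts through factors bound to X and Y boxes in their promoters. Dendritic cells, macrophages and B cells express these genes without a stimulus, while interferon gamma can induce them in keratinocytes and fibroblasts. In mouse epidermis, Langerhans cell precursors arrive around birth and gain surface class II in the days after it.

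All 10 probe sets had their highest mean in pRb+/+;p107-/- skin, where 31.1% of all tested probe sets had theirs. Their lowest mean was in pRb+/+ skin for 6 and in pRb-/-;p107+/+ skin for 4. The comparison that chose the genes set pRb+/+;p107-/- skin against pRb+/+ skin. These places of the means follow in part from that choice, and nothing is read from their counts. Cd74 was higher on all 4 p107-/- arrays than on the other 4, whereas H2-Eb1 was lower on all 4 pRb-/- arrays than on the other 4. In whole skin, more cells that express these genes and more RNA per cell cannot be told apart.

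**Figure D1:**
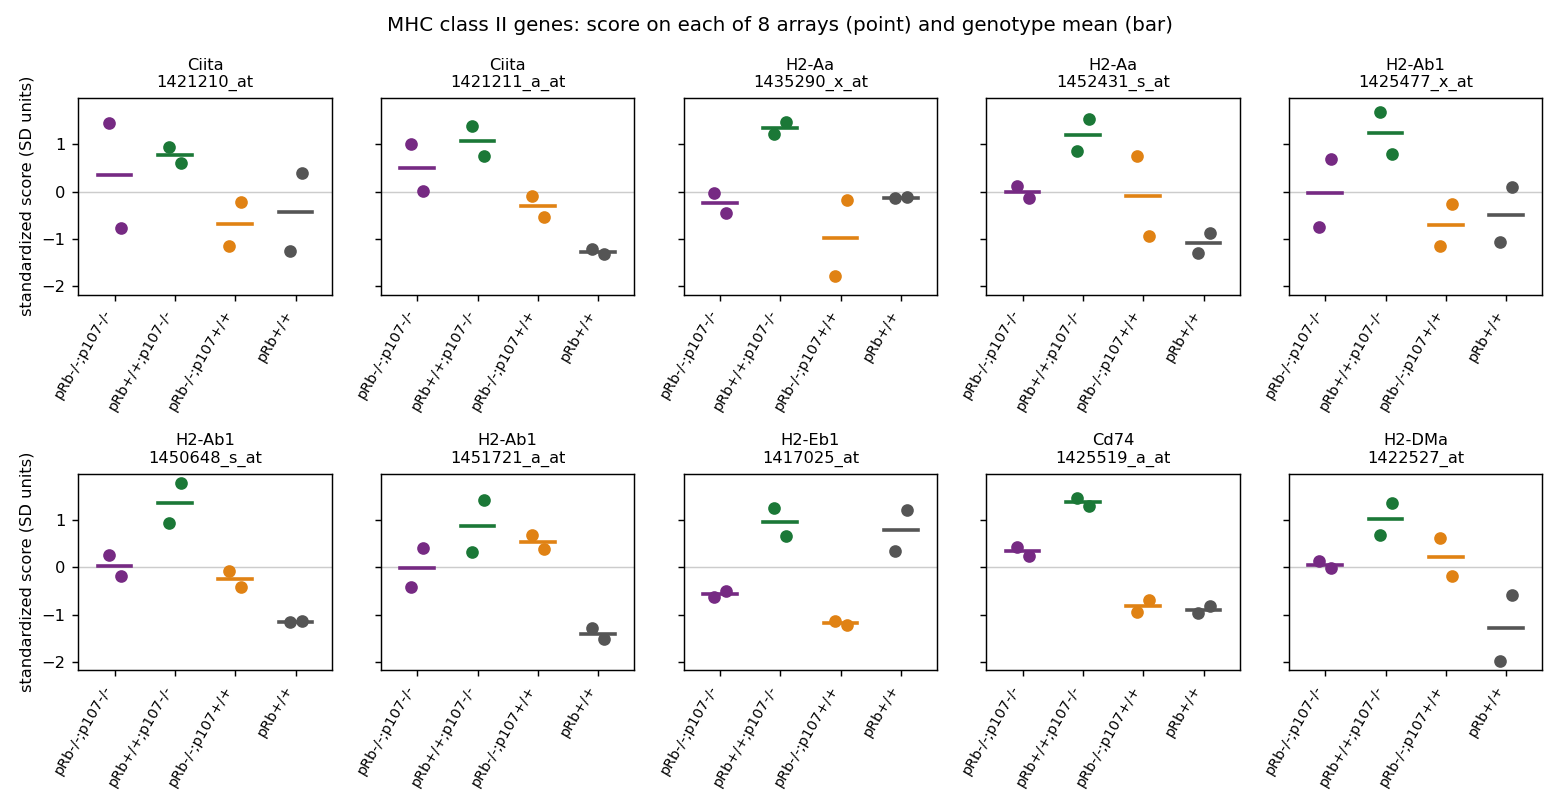
Standardized score (y axis, SD units of each probe set over the 8 arrays) of the 10 probe sets of 6 MHC class II genes. Points are single arrays, bars the means of 2 arrays, and the genotypes run along the x axis. Skin lacking p107 alone has the highest mean in every panel, which follows in part from how the genes were chosen. In the H2-Eb1 panel all 4 pRb-/- arrays are below the other 4.

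Some facts of the arrays bear on these comparisons. The probe set of Rb1, the gene of pRb, scored -1.56 and -1.28 in skin lacking both proteins, 0.02 and 0.40 in skin lacking p107 alone, -0.22 and 0.36 in skin lacking pRb alone and 1.21 and 1.07 in pRb+/+ skin, so it did not part the 2 single losses. Both probe sets of Rbl1, the gene of p107, were lowest on the arrays lacking p107 alone, at -1.53 to -1.12. The first was -0.31 and 0.31 in skin lacking both proteins, -1.51 and -1.22 in skin lacking p107 alone, 1.30 and 1.14 in skin lacking pRb alone and 0.08 and 0.21 in pRb+/+ skin, so it overlapped between skin lacking both proteins and pRb+/+ skin. The second was -0.13 and -0.20 in skin lacking both proteins, -1.53 and -1.12 in skin lacking p107 alone, 1.40 and -0.02 in skin lacking pRb alone and 0.58 and 1.03 in pRb+/+ skin. Names such as skin lacking both proteins thus go by the label, and neither protein was measured. The positions of these probes relative to the deletions are not given in the sources used here. The 27 poly-A control probe sets, which measure no mouse gene, averaged -0.84 to -0.44 on the 4 p107-/- arrays and 0.12 to 1.27 on the other 4. The 18 hybridization controls averaged -0.80 to -0.32 and -0.03 to 2.05 on the same sets of arrays, and the part of both in differences that follow p107 was not tested. Gapdh control probe sets averaged -0.03 to 0.84 on the 6 arrays of the other genotypes and -1.52 and -1.47 on the pRb+/+ arrays. The median difference over all probe sets was 0.35 for p107 loss in pRb+/+ skin and -0.33 for pRb loss in p107-/- skin. These medians became 0.07 and -0.07 after quantile normalization, so each difference of a class II gene stands beside the median over all probe sets. Markers cannot show here whether a cell type was present, since a score has no zero level.

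Ciita, the transactivator, was measured by 2 probe sets that parted the genotypes to different degrees. Probe set 1421211_a_at scored 0.99 and 0.01 in skin lacking both proteins, 1.39 and 0.75 in skin lacking p107 alone, -0.08 and -0.54 in skin lacking pRb alone and -1.22 and -1.31 in pRb+/+ skin. The 4 p107-/- arrays were above the other 4, though only just, between 0.01 and -0.08. Probe set 1421210_at scored 1.46 and -0.76 in skin lacking both proteins, 0.93 and 0.59 in skin lacking p107 alone, -1.15 and -0.22 in skin lacking pRb alone and -1.25 and 0.39 in pRb+/+ skin. Both arrays lacking p107 alone were above the 4 arrays that keep p107, and the 2 arrays lacking both proteins lay far apart, with 1 of them the highest of all 8. The 2 probe sets correlated with r = 0.63 over the 8 arrays.

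H2-Aa encodes the alpha chain of the A molecule and H2-Ab1 its beta chain, and the annotation places them side by side on chromosome 17. The H2-Aa probe set 1452431_s_at scored 0.12 and -0.13 in skin lacking both proteins, 0.86 and 1.53 in skin lacking p107 alone, 0.74 and -0.94 in skin lacking pRb alone and -1.30 and -0.88 in pRb+/+ skin. Both arrays lacking p107 alone were above the other 6, and the 2 arrays lacking pRb alone spanned most of the remaining range. The other H2-Aa probe set, 1435290_x_at, scored -0.03 and -0.44 in skin lacking both proteins, 1.22 and 1.46 in skin lacking p107 alone, -1.77 and -0.17 in skin lacking pRb alone and -0.14 and -0.12 in pRb+/+ skin. It too put the arrays lacking p107 alone on top, but it had skin lacking both proteins at the height of pRb+/+ skin, and it correlated with 1452431_s_at by r = 0.35. Names ending in _x_at or _s_at mark probes that may also bind related transcripts.

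For H2-Ab1, probe set 1450648_s_at scored 0.25 and -0.19 in skin lacking both proteins, 0.94 and 1.79 in skin lacking p107 alone, -0.08 and -0.41 in skin lacking pRb alone and -1.16 and -1.14 in pRb+/+ skin. The arrays lacking p107 alone were above all others, the pRb+/+ arrays below all others, and both genotypes without pRb overlapped between them. Probe set 1451721_a_at scored -0.41 and 0.40 in skin lacking both proteins, 0.32 and 1.42 in skin lacking p107 alone, 0.68 and 0.38 in skin lacking pRb alone and -1.29 and -1.51 in pRb+/+ skin. Here too pRb+/+ skin was lowest, but the other 3 genotypes overlapped. Probe set 1425477_x_at scored -0.75 and 0.69 in skin lacking both proteins, 1.67 and 0.78 in skin lacking p107 alone, -1.16 and -0.27 in skin lacking pRb alone and -1.07 and 0.09 in pRb+/+ skin. Its arrays lacking p107 alone were on top and the other 3 genotypes overlapped. Between the 3 H2-Ab1 probe sets r ran from 0.37 to 0.81.

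H2-Eb1 encodes the beta chain of the E molecule and follows H2-Aa on chromosome 17. Its probe set scored -0.63 and -0.49 in skin lacking both proteins, 1.25 and 0.66 in skin lacking p107 alone, -1.13 and -1.22 in skin lacking pRb alone and 0.35 and 1.21 in pRb+/+ skin. The arrays parted by pRb, and within pRb+/+ skin those with and without p107 overlapped. Of the 10 probe sets this was the 1 with all 4 pRb-/- arrays below the other 4, which 2.24% of all tested probe sets showed. FVB mice carry an H2 haplotype whose H2-Ea gene, for the alpha chain that pairs with H2-Eb1, is defective. Its 3 probe sets, looked up after these values had been read, had replicates far apart in some genotypes, such as 0.15 and -1.19 in skin lacking pRb alone, and no difference of theirs passed in the 5 comparisons of genotypes (limma linear model, adjusted p from 0.399 to 0.97).

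The promoters of H2-Aa and H2-Eb1, which are neighbours and both known targets of Ciita, are shown. The H2-Aa probe set 1452431_s_at had another order of genotype means than H2-Eb1, whereas 1435290_x_at had the same order. RefSeq windows of GRCm38.p6, from 250 bases before to 50 after the gene start, were found for 3 of the 6 genes, H2-Aa, H2-Eb1 and H2-DMa, the last with 2 windows. Capitals mark the letters GCAAC and ATTGG, and ATTGG is the core of the Y box.
H2-Aa, chr17:34287774-34288073, minus strand: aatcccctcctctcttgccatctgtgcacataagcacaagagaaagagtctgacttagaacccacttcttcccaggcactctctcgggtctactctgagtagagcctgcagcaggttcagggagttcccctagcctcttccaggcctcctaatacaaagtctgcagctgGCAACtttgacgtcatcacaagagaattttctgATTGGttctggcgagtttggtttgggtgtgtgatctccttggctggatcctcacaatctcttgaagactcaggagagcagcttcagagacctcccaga
H2-Eb1, chr17:34305617-34305916, plus strand: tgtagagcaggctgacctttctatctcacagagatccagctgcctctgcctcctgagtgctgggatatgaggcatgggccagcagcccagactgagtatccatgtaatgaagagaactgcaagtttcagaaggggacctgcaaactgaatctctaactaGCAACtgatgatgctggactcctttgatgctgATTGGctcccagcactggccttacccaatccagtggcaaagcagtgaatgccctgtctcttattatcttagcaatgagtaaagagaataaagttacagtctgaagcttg
In H2-Aa the letters GCAAC start 81 bases before the gene start, and ATTGG starts 33 bases after them. In H2-Eb1 GCAAC starts 91 bases before the gene start, and ATTGG follows 32 bases later. GCAAC with ATTGG starting 25 to 45 bases further on the same strand, searched on both strands, stood in 1.01% of 32851 promoter windows and in neither H2-DMa window. These letters were picked from the windows after they had been read, so their presence in H2-Aa and H2-Eb1 is a description. The pair also stood in 3 of 24 windows of class II accessory genes, those of H2-Oa, H2-Ob and H2-Eb2. It stood in 0 of 23 windows of class I genes, and no contrast between the classes is read from these counts. The same search with AGNNACAG, a core of the X box, in place of GCAAC matched 1 of the 4 windows, that of H2-Eb1, and 0.438% of all windows. That match lay on the strand opposite the gene and not at the capitals. ATTGG alone, or its reverse complement CCAAT, stood in 3 of the 4 and in 37.4% of all.

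Cd74 scored 0.44 and 0.23 in skin lacking both proteins, 1.46 and 1.29 in skin lacking p107 alone, -0.95 and -0.68 in skin lacking pRb alone and -0.97 and -0.82 in pRb+/+ skin. The 4 p107-/- arrays were above the other 4, those lacking p107 alone were above those lacking both proteins, and the arrays that keep p107 overlapped whether or not they had pRb. Of the 10 probe sets 2 had the 4 p107-/- arrays above the other 4, Cd74 and the Ciita probe set 1421211_a_at, against 7.51% of all tested probe sets. Both sets of 4 include arrays of the comparison that chose the genes. This count follows in part from that choice, and nothing is read from it.

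H2-DMa encodes the alpha chain of H2-DM. It scored 0.12 and -0.02 in skin lacking both proteins, 0.68 and 1.35 in skin lacking p107 alone, 0.62 and -0.19 in skin lacking pRb alone and -1.98 and -0.58 in pRb+/+ skin. The arrays lacking p107 alone were above all others and the pRb+/+ arrays below all others, while both genotypes without pRb overlapped.

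For p107 loss in pRb+/+ skin, the comparison in which Cd74 had stood out, only values are given. The difference was 2.27 ± 0.14 for Cd74 (SE of a limma linear model over all 8 arrays), 2.34 ± 0.45 for the Ciita probe set 1421211_a_at, 2.30 ± 0.62 for H2-DMa and 0.17 ± 0.37 for H2-Eb1. Across the 3 H2-Ab1 probe sets it ran from 1.72 to 2.51, and across the 2 of H2-Aa from 1.47 to 2.28. All 10 differences were positive, as were those of 58.8% of all tested probe sets, and their median was 2.27 beside 0.35 over all. With array medians subtracted, H2-Eb1 turned to -0.14. Both arrays lacking p107 alone were above both pRb+/+ arrays for 9 of the 10 probe sets, all but H2-Eb1, and for 35.2% of all. Nothing is read from these counts, since this comparison chose the genes.

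The loss of p107 in pRb-/- skin sets against each other the 4 arrays that the previous comparison does not, although the scaling of the scores and the error come from all 8. Cd74 was 0.44 and 0.23 in skin lacking both proteins and -0.95 and -0.68 in skin lacking pRb alone. The difference of 1.15 ± 0.14 did not pass adjustment over the 22626 tested probe sets (limma linear model, adjusted p = 0.0622). H2-Eb1 differed by 0.61 ± 0.37 and the Ciita probe set 1421211_a_at by 0.82 ± 0.45, and like Cd74 both had the 2 genotypes without overlap. These were the 3 of 10 probe sets with both arrays lacking both proteins above both lacking pRb alone, against 22.9% of all. The other 7 overlapped, with differences from -0.53 for the H2-Ab1 probe set 1451721_a_at to 1.03 for the Ciita probe set 1421210_at, which turned to -0.081 without replicate 1 of the arrays lacking both proteins. H2-DMa, at -0.16 ± 0.62, and the H2-Aa probe set 1452431_s_at, at 0.10 ± 0.66, differed by less than their errors. In all 8 of 10 differences were positive, against 47.3% of all, with a median of 0.65 beside -0.10. The model called 0 of the 10 and 1.37% of all, the moderated test of limma called 0, and 1 of 10 against 19.2% of all had an unadjusted p below 0.05.

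Loss of both proteins was set against the same pRb+/+ arrays as p107 loss in pRb+/+ skin, the lower arm of the comparison that chose the genes, so positive differences follow in part from that choice. Cd74 was 0.44 and 0.23 in skin lacking both proteins and -0.97 and -0.82 in pRb+/+ skin, and it rose by 1.23 ± 0.14 (limma linear model, adjusted p = 0.0444). It was the 1 of the 10 probe sets called higher, against 1.41% of all. The call was lost with any 1 of the 8 arrays left out (adjusted p from 0.0744 to 0.17). It was also lost after quantile normalization (0.0591), after subtracting array medians (0.0823), with the replicate number as a block (0.123) and in the moderated test (0.266). With an array left out the difference ran from 1.13 to 1.33. The Ciita probe set 1421211_a_at differed by 1.77 ± 0.45 and H2-Eb1 by -1.34 ± 0.37, both without overlap of the groups and neither past the threshold (adjusted p = 0.136 and 0.155). Of the 10 probe sets 8 had a positive difference, against 52.3% of all, and the median was 1.13 beside 0.10. Both arrays lacking both proteins were above both pRb+/+ arrays for 6 of the 10, against 28.5% of all, and below them for 1, H2-Eb1, against 26.9%. An unadjusted p below 0.05 was found for 4 of the 10 and for 22.3% of all.

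**Figure D2:**
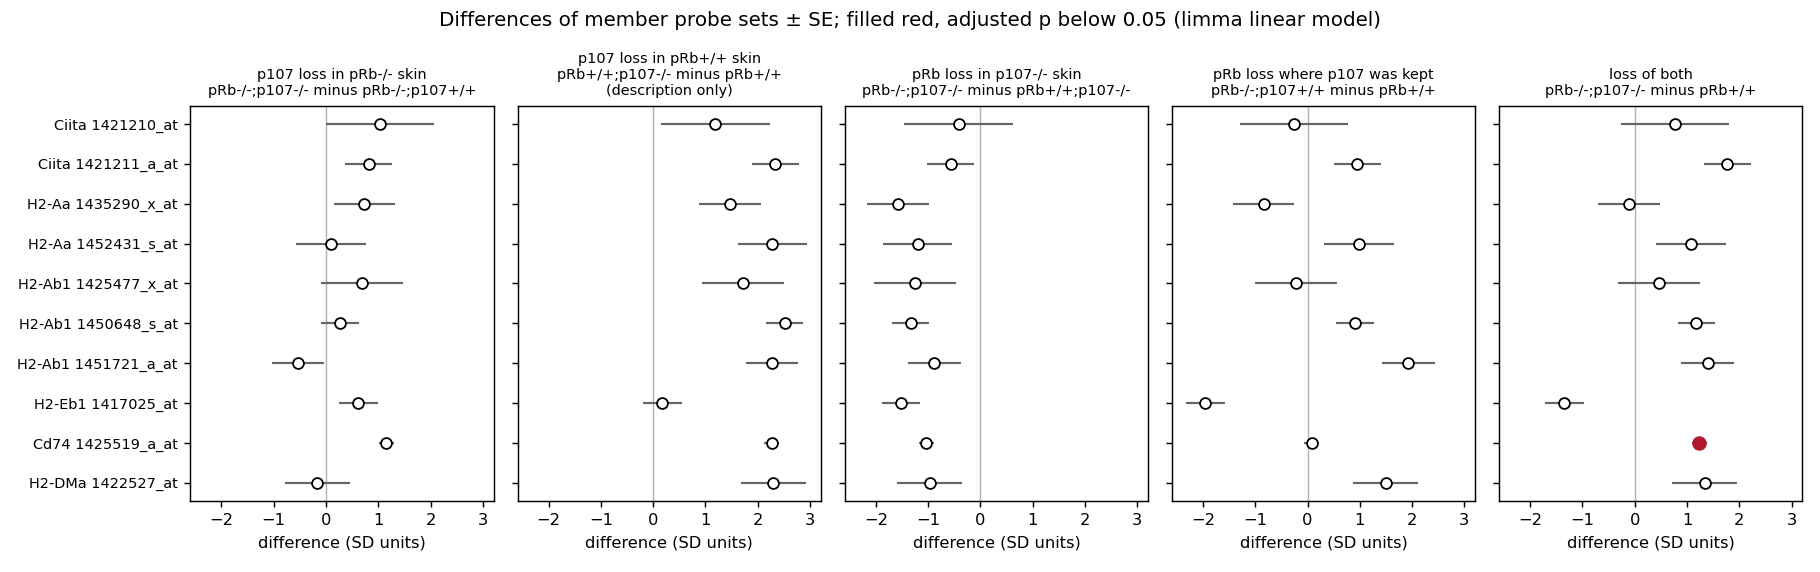
Differences of the 10 probe sets (points, x axis in SD units of the probe set) with their standard errors (lines) in 5 comparisons. The filled point is Cd74 in loss of both, at 1.23 ± 0.14, and the panel for p107 loss in pRb+/+ skin is a description without a test. H2-Eb1 is negative in the 3 panels that set pRb-/- skin against pRb+/+ skin. So is the H2-Aa probe set 1435290_x_at, though only by -0.11 in loss of both.

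Loss of pRb in p107-/- skin was set against the pRb+/+;p107-/- arrays, the higher arm of the comparison that chose the genes, so negative differences follow in part from that choice. All 10 differences were negative. They ran from -1.57 for the H2-Aa probe set 1435290_x_at to -0.42 for the Ciita probe set 1421210_at, which turned to 0.69 without replicate 2 of the arrays lacking both proteins. Positive differences numbered 0 of 10, against 37.4% of all, and the median was -1.12 beside -0.33. Cd74 was 0.44 and 0.23 in skin lacking both proteins and 1.46 and 1.29 in skin lacking p107 alone, and the difference of -1.04 ± 0.14 did not pass (limma linear model, adjusted p = 0.136). H2-Eb1 differed by -1.52 ± 0.37 (adjusted p = 0.271) and H2-DMa by -0.96 ± 0.62. Both arrays lacking both proteins were below both lacking p107 alone for 7 of the 10, against 33.7% of all. The model called 0 of the 10 and 0.256% of all, the moderated test called 0, and 3 of 10 against 12% of all had an unadjusted p below 0.05.

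Where p107 was kept, differences with pRb loss from the same pRb+/+ arrays had both signs. H2-Eb1 was -1.13 and -1.22 in skin lacking pRb alone and 0.35 and 1.21 in pRb+/+ skin, a difference of -1.96 ± 0.37 that did not pass (limma linear model, adjusted p = 0.191). The H2-Ab1 probe set 1451721_a_at differed by 1.93 ± 0.50 (adjusted p = 0.275) and H2-DMa by 1.50 ± 0.62 (adjusted p = 0.429). Cd74, at 0.079 ± 0.14, differed by less than its error, and turned to -0.11 with array medians subtracted. Positive differences numbered 6 of 10, against 53.7% of all, with a median of 0.49 beside 0.12. Both arrays lacking pRb alone were above both pRb+/+ arrays for 4 of the 10, against 23% of all, and below them for 2, against 17.4%. The model called 0 of the 10 and 0% of all, the moderated test called 0, and 2 of 10 against 13.4% of all had an unadjusted p below 0.05.

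The interaction asks whether the difference with p107 loss was another in pRb-/- than in pRb+/+ skin. It subtracts the difference in pRb+/+ skin, by which the genes were chosen, so its sign follows in part from that choice and it is given with no test. It was negative for 9 of the 10 probe sets and positive for H2-Eb1, and 40.1% of all were positive. That of the Ciita probe set 1421210_at turned to 0.31 with array medians subtracted. For Cd74 it was -1.11 ± 0.20, for the H2-Ab1 probe set 1451721_a_at -2.81 ± 0.71 and for H2-Eb1 0.44 ± 0.53.

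Over the 8 arrays all probe sets but that of H2-Eb1 correlated positively with one another. The 36 pairs among these 9 had r from 0.05 to 0.92, with a median of 0.63. The 9 pairs with H2-Eb1, 7 of them positive, had r from -0.30 to 0.68, with a median of 0.16. The highest was with the H2-Aa probe set 1435290_x_at and the lowest with the H2-Ab1 probe set 1451721_a_at. All pairs share the same 8 arrays and pools of RNA, so these values are a description.

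**Figure D3:**
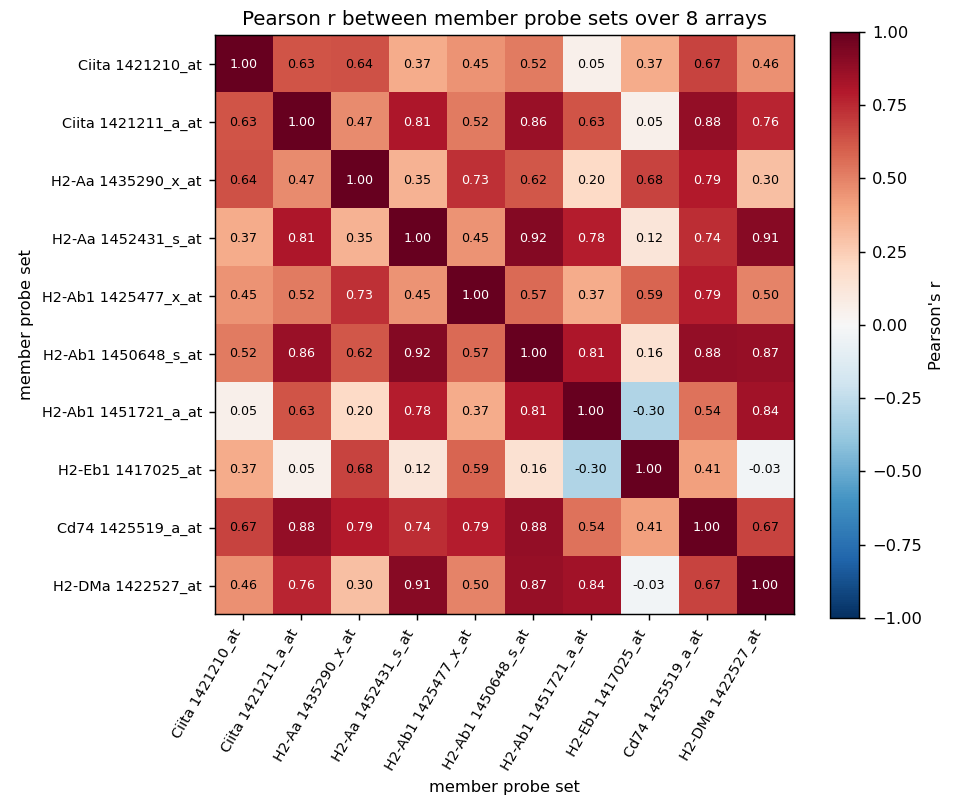
Pearson's r over 8 arrays for each pair of the 10 probe sets, on a colour scale from -1 to 1 with the value in each cell. The H2-Eb1 pairs hold the lowest values, down to -0.30, and run up to 0.68.

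By Pearson's r over the 8 arrays, the 8 genes most like Cd74 were Mcpt-ps1, a mast cell protease pseudogene, Tgm3, a transglutaminase of hair and cornified cells, Laptm4a, the tyrosine kinase gene Src, the cytokine receptor gene Il21r, Hspg2, which encodes perlecan, the adaptor gene Gab2 and the transcription factor gene Lmx1a. Their r ran from 0.97 to 0.98, and 119 of 12392 other genes reached 0.9. Ranked by Spearman's rho, 0 of these 8 were among the 8 highest, where ties left 16 genes at or above the rho of the eighth. The nearest members were the H2-Ab1 probe set 1450648_s_at and the Ciita probe set 1421211_a_at, both at r = 0.88.

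Other genes of the pathway were set beside the class II genes with 1 probe set per gene. Of 19 listed accessory genes 14 were measured, and 0 passed the limma linear model in any of the 6 comparisons. With p107 loss in pRb-/- skin 6 had a positive difference and 8 a negative one, and the median was -0.63 beside -0.05 over all genes. Nfya, a subunit of the Y box factor NF-Y, was 0.74 and 1.62 in skin lacking both proteins and -1.12 and -0.48 in skin lacking pRb alone, a difference of 1.98 ± 0.52 (adjusted p = 0.174). Another subunit gene, Nfyb, had the opposite sign there, at -1.83 ± 0.70. In loss of both 7 were positive, among them Nfya at 2.03 ± 0.52, Ifi30, a thiol reductase of endosomes, at 1.57 ± 0.98 and H2-Oa, a chain of the inhibitor of H2-DM, at 1.31 ± 0.82. With pRb loss where p107 was kept, Ctss, whose protease trims the invariant chain, differed by -2.13 ± 0.78, and the X box factor genes Rfxap and Rfx5 by 2.11 ± 0.77 and -2.02 ± 0.83 (adjusted p from 0.381 to 0.423).

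Of 26 listed genes of class I presentation 18 were measured, and 0 passed in any comparison. In loss of both 5 were positive and 13 negative, with a median of -0.74 beside 0.14 over all genes. The immunoproteasome gene Psmb8 scored 0.16 and 0.29 in skin lacking both proteins, 1.45 and 1.09 in skin lacking p107 alone, -0.65 and 0.06 in skin lacking pRb alone and -0.81 and -1.59 in pRb+/+ skin. As for Cd74, its arrays lacking p107 alone were highest. The list did not share this: with p107 loss in pRb+/+ skin 10 of the 18 were positive, beside 60.5% of all genes, and 8 negative. Psme1 and Erap1 differed there by -2.30 ± 0.54 and -2.04 ± 0.72. The class I gene H2-M3 scored -1.12 and -0.45 in skin lacking both proteins, 1.28 and 0.95 in skin lacking p107 alone, -1.03 and -0.96 in skin lacking pRb alone and 0.90 and 0.43 in pRb+/+ skin. Like H2-Eb1 it was lower on all 4 pRb-/- arrays, and its differences with pRb loss, -1.90 ± 0.32 in p107-/- skin and -1.66 ± 0.32 where p107 was kept, did not pass (limma linear model, adjusted p = 0.172 and 0.191). Canx, the chaperone calnexin, differed by -2.27 ± 0.34 with p107 loss in pRb-/- skin (adjusted p = 0.081).

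Of 23 listed genes of interferon gamma signalling, which induces Ciita, 20 were measured and 0 passed. Positive differences numbered 16 with p107 loss in pRb-/- skin, with a median of 0.63 beside -0.05 over all genes, and 15 in loss of both, with a median of 0.66 beside 0.14. Their mean score was 0.06 to 0.44 on the arrays lacking both proteins, 0.37 to 0.37 on those lacking p107 alone, -0.44 to 0.07 on those lacking pRb alone and -0.58 to -0.30 on the pRb+/+ arrays. Ifng, the cytokine gene, scored 1.54 and -0.12 in skin lacking both proteins, 1.45 and 0.20 in skin lacking p107 alone, -0.76 and -0.61 in skin lacking pRb alone and -0.67 and -1.04 in pRb+/+ skin. All 4 p107-/- arrays were above the other 4, with replicates far apart, and the difference in loss of both was 1.56 ± 0.75. The receptor gene Ifngr1 differed in loss of both by 2.51 ± 0.40 (limma linear model, adjusted p = 0.0678). The gene of the other receptor chain, Ifngr2, differed by -1.51 ± 0.25 with p107 loss in pRb-/- skin (adjusted p = 0.0969).

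Of 8 costimulation and CD1 genes all were measured and 0 passed, and 3 were positive both with p107 loss in pRb-/- skin, beside 48.9% of all genes, and in loss of both, beside 53.3%. Cd1d1, which presents lipids to T cells, was -1.39 and -1.66 in skin lacking both proteins and 0.19 and 1.05 in skin lacking pRb alone, a difference of -2.15 ± 0.35 (limma linear model, adjusted p = 0.0926). The inhibitory ligand genes Pdcd1lg2 and Cd274 differed by 1.53 ± 0.59 and 1.38 ± 0.95 in loss of both.

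Markers of cells that could carry class II RNA were listed in the same way. Of 13 measured Langerhans and dendritic cell markers 10 had a positive difference with p107 loss in pRb+/+ skin, beside 60.5% of all genes. With p107 loss in pRb-/- skin 7 did, beside 48.9% of all genes, and in loss of both 9 did, beside 53.3%. Their mean score was -0.24 to 0.19 on the arrays lacking both proteins, 0.31 to 0.46 on those lacking p107 alone, -0.51 to 0.28 on those lacking pRb alone and -0.37 to -0.13 on the pRb+/+ arrays. Cd207, the Langerhans cell lectin gene, scored -0.76 and 0.89 in skin lacking both proteins, 0.41 and 1.52 in skin lacking p107 alone, -1.16 and -0.00 in skin lacking pRb alone and 0.39 and -1.28 in pRb+/+ skin. Both arrays lacking p107 alone were above the 4 arrays that keep p107, though only just, between 0.41 and 0.39. Its replicates lay far apart, and the other genotypes overlapped. Csf1r, a growth factor receptor of these cells and of macrophages, fell by 2.10 with p107 loss in pRb-/- skin and by 2.37 in loss of both (limma linear model, adjusted p = 0.0267 and 0.0174), the opposite sign to Cd74. Macrophage markers averaged -0.01 to 0.70 on the arrays lacking both proteins, -0.06 to 0.30 on those lacking p107 alone, -0.43 to 0.05 on those lacking pRb alone and -0.34 to -0.20 on the pRb+/+ arrays. Among these 14 Cd14, a receptor subunit for bacterial lipopolysaccharide, rose in loss of both by 2.26 ± 0.27 (limma linear model, adjusted p = 0.0456), and 13 did not pass. Of all probe sets 1.41% were called higher there. Positive differences in loss of both numbered 9 of the 14, beside 53.3% of all genes, and 5 were negative. B cell markers averaged -0.54 to 0.64 on the arrays lacking both proteins, -0.09 to 0.42 on those lacking p107 alone, -0.12 to 0.73 on those lacking pRb alone and -0.85 to -0.21 on the pRb+/+ arrays, with genotypes that overlapped. Of the 9 measured B cell markers 4 had a positive difference with p107 loss in pRb-/- skin, beside 48.9% of all genes. In loss of both 8 did, beside 53.3%. Ebf1, a B cell transcription factor gene, fell by 2.43 with p107 loss in pRb-/- skin (limma linear model, adjusted p = 0.0246), and 8 did not pass. In loss of both Ebf1 was the 1 negative marker, at -1.90 ± 0.14 (limma linear model, adjusted p = 0.0225).

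Mast cell, T cell and keratinocyte markers had higher mean scores on all 4 p107-/- arrays than on the other 4, as Cd74 did. These means were not adjusted for the array medians over all tested probe sets, which ran from -0.246 to 0.222. The T cell means of the 2 sets of arrays came as close as -0.04 and -0.22. Mast cell markers averaged 0.50 to 0.64 on the arrays lacking both proteins, 0.45 to 0.62 on those lacking p107 alone, -0.39 to -0.36 on those lacking pRb alone and -0.85 to -0.61 on the pRb+/+ arrays. With p107 loss in pRb-/- skin 10 of 11 were positive, beside 48.9% of all genes. The model called 4 of the 11, beside 1.37% of all probe sets. Cpa3, Tpsab1 and Hdc rose, by 1.91 ± 0.19, 2.15 ± 0.13 and 2.46 ± 0.14 (limma linear model, adjusted p from 0.0228 to 0.0468). The protease gene Mcpt4 fell, at -2.36 ± 0.19 (limma linear model, adjusted p = 0.0365). These calls and those of Csf1r, Cd14 and Ebf1 were lost in the moderated test, which called 0 of all probe sets. With the replicate block 2 of all probe sets were called with p107 loss in pRb-/- skin and 37 in loss of both. T cell markers, 10 measured and 0 called, averaged -0.04 to 0.46 on the arrays lacking both proteins, 0.47 to 0.55 on those lacking p107 alone, -0.30 to -0.22 on those lacking pRb alone and -0.57 to -0.36 on the pRb+/+ arrays. Keratinocyte markers, 11 measured and 0 called, averaged 0.52 to 1.00 on the arrays lacking both proteins, 0.19 to 0.41 on those lacking p107 alone, -0.89 to -0.27 on those lacking pRb alone and -0.65 to -0.30 on the pRb+/+ arrays. Pan-leukocyte markers, 10 measured and 0 called, averaged -0.44 to -0.25 on the arrays lacking both proteins, 0.26 to 0.74 on those lacking p107 alone, -0.45 to 0.14 on those lacking pRb alone and -0.01 to 0.00 on the pRb+/+ arrays, and there skin lacking both proteins was not above pRb+/+ skin. Dermal fibroblast markers, 9 measured and 0 called, averaged -1.44 to -0.47 on the arrays lacking both proteins, 0.59 to 0.80 on those lacking p107 alone, 0.20 to 0.31 on those lacking pRb alone and -0.03 to 0.04 on the pRb+/+ arrays. As for the class II genes, they were highest in skin lacking p107 alone, but 0 of 9 were positive with p107 loss in pRb-/- skin, with a median of -1.14 beside -0.05 over all genes. With pRb loss in p107-/- skin 8 of 9 were negative, with a median of -2.02 beside -0.34. The part of each cell type in the class II scores was not tested.

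**Figure D4:**
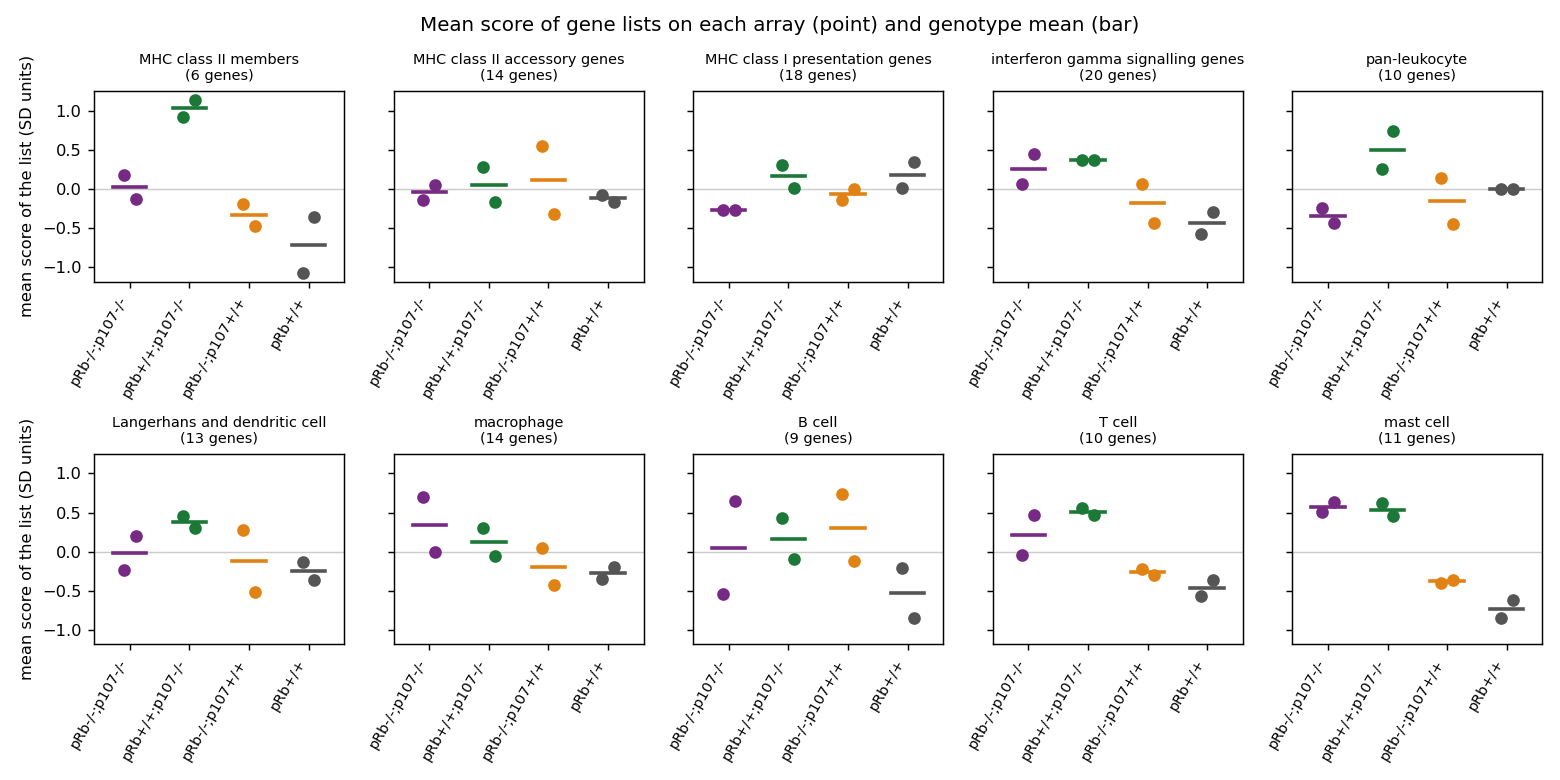
Mean standardized score (y axis, SD units) of the 6 class II genes and of 9 lists of pathway genes and cell type markers, by genotype. Points are single arrays, bars are means of 2 arrays, and the number of measured genes stands above each panel. The 4 p107-/- arrays lie above the other 4 in the panels of T cell and mast cell markers, with no adjustment for array medians.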

How the data were processed

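RMA values were made by the authors, according to the submitters' processing notes, without a version. What they deposited is a score: every 1 of 22690 probe sets has mean 0 and SD 1 across the arrays. No label mentions that step, and the scale before it, log or linear, and signal over background are not given in the sources used here. The number of arrays limits the precision.

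Sample titles gave the genotype and replicate number. They do not say that the 2 arrays of a genotype are separate pools, so p-values measure only the spread between these arrays. With limma 3.58.1 in R 4.3.3, 1 coefficient for each genotype was fitted to all 8 arrays (4 residual degrees of freedom). The unmoderated test was used because it gives 1 result on scores and on the values behind them. Benjamini-Hochberg adjustment covered 22626 probe sets, without 64 array controls, at a threshold of 0.05. The fit was tested on simulated data. In gene lists 1 probe set stood for a gene, by the ending of its name (_at, _a_at, _s_at, _x_at) and then its number. Named were all member probe sets, list genes past the threshold or among the 3 largest differences of a comparison, markers past the threshold, Cd207 as the Langerhans cell marker, and the 8 genes most like Cd74. Members, lists and tests were chosen with earlier results of these data known. Alternatives were the moderated test, quantile normalization, subtracted array medians, the replicate number as a block, adjustment over single-gene probe sets and each array left out. Promoter windows came from RefSeq.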

Additional observations from a re-analysis of the deposited data

Results flagged for a closer look

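For 2 of the 10 probe sets, loss of pRb went with opposite shifts on every array in p107-/- skin and where p107 was kept. Of all tested probe sets 33.7% were lower on both arrays with pRb loss in p107-/- skin, and 23% were higher where p107 was kept. The share of all probe sets with opposite shifts was not counted, so nothing is read from the 2. The H2-Ab1 probe set 1450648_s_at was 0.25 and -0.19 in skin lacking both proteins, below 0.94 and 1.79 in skin lacking p107 alone, and -0.08 and -0.41 in skin lacking pRb alone, above -1.16 and -1.14 in pRb+/+ skin. H2-DMa was 0.12 and -0.02 in skin lacking both proteins, below 0.68 and 1.35 in skin lacking p107 alone, and 0.62 and -0.19 in skin lacking pRb alone, above -1.98 and -0.58 in pRb+/+ skin. The difference between the 2 effects, which is the interaction, was -2.24 ± 0.51 for H2-Ab1 and -2.46 ± 0.88 for H2-DMa and is given with no test. This difference includes the shift with p107 loss in pRb+/+ skin by which the genes were chosen.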

How the results depend on the processing

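Of all probe sets 95 were called for p107 loss in pRb+/+ skin (46 higher and 49 lower), 76 after quantile normalization (25 and 51), 52 with array medians subtracted (13 and 39), 1 with the replicate block and 0 in the moderated test. For p107 loss in pRb-/- skin 310 were called, 171 after quantile normalization, 137 with array medians subtracted, 2 with the block and 0 moderated. For pRb loss in p107-/- skin 58 were called (40 higher and 18 lower), 77 after quantile normalization (65 and 12), 2 with array medians subtracted (both higher), 0 with the block and 0 moderated. For loss of both 666 were called, 370 after quantile normalization, 606 with array medians subtracted, 37 with the block and 0 moderated. For pRb loss where p107 was kept 0 became 1 with the block and 5 over single-gene probe sets, and for the interaction 0 became 2 over single-gene probe sets. With 1 array left out these comparisons had 0 to 2, 0 to 17, 0 to 2, 0 to 242, 0 to 4 and 0 to 1 calls, in the order named. The Cd74 call in loss of both became 0 of 10 when moderated, after quantile normalization, with array medians subtracted, with the block and with any array left out. The sign of H2-Eb1 for p107 loss in pRb+/+ skin turned with array medians subtracted (-0.14). Its difference there also ran across 0 with arrays left out, from -0.25 to 0.60. With p107 loss in pRb-/- skin H2-DMa turned to 0.0205 after quantile normalization. For pRb loss where p107 was kept, Cd74 turned to -0.0829 after quantile normalization and -0.11 with array medians subtracted. The interaction of Ciita 1421210_at turned to 0.0461 and 0.31 under the same settings. With arrays left out, differences for p107 loss in pRb-/- skin ran across 0 for Ciita 1421210_at from -0.0807 to 2.14, H2-DMa 1422527_at from -0.57 to 0.24, H2-Ab1 1425477_x_at from -0.0326 to 1.41, H2-Aa 1435290_x_at from -0.0648 to 1.53 and H2-Aa 1452431_s_at from -0.75 to 0.94. Those for pRb loss where p107 was kept did so for Ciita 1421210_at from -1.08 to 0.56, H2-Ab1 1425477_x_at from -0.80 to 0.35 and Cd74 1425519_a_at from -0.054 to 0.21. Those for pRb loss in p107-/- skin did so for Ciita 1421210_at from -1.53 to 0.69. Those for loss of both did so for Ciita 1421210_at from -0.34 to 1.88, H2-Ab1 1425477_x_at from -0.26 to 1.18 and H2-Aa 1435290_x_at from -0.31 to 0.0962. Interactions did so for Ciita 1421210_at from -1.27 to 0.95 and H2-Aa 1435290_x_at from -1.53 to 0.0667. Same-numbered arrays deviated from their group means with r from -0.13 to 0.10 between genotypes, so the replicate numbers did not pair them. AGNNACAG followed by ATTGG at any spacing matched 1 of the 4 promoter windows and 3.17% of all. The cause of these changes was not tested.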
